A study of Mus musculus with 4 samples.

Results

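Anti-PD-1 was compared with control IgG in the lungs of mice whose KP tumours were wild type for Asf1a, with 1 single-cell RNA library for each antibody. The members were all barcodes with at least 200 detected genes and at most 10% of their unique molecular identifiers (UMIs, counted RNA molecules) from mitochondrial genes, whose symbols start with mt-. They numbered 12030 of the 23730 such cells in the series, 5745 under IgG and 6285 under anti-PD-1. KP cells, a mouse model of non-small-cell lung cancer, were given intravenously to B6 mice, which have a working immune system, and tumours in the lung were followed by MRI. The mice then received isotype IgG or the anti-PD-1 antibody 29F.1A12 for 1 week, the latter at 200 µg per mouse 3 times a week. Whole perfused lungs were digested with collagenase D and DNase I and sorted for live cells with DAPI. Every group therefore had the same tumour model, host strain and treatment time. A second pair of libraries, with the same antibodies and Asf1a-knockout KP tumours, shares no library with the wild-type pair and is given beside it (11700 cells). The labels used here do not give the number, age or sex of the mice behind a library, or whether the KP cells were 1 clone. In non-tumour cells of the wild-type libraries the Y-linked Ddx3y stood at 98.3 CPM under IgG and 96.5 under anti-PD-1, with Xist at 0.303 and 0.408 CPM, so both libraries read as male. CPM is the number of UMIs per 1000000 UMIs of the stated cells.

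With 1 library a side, nothing here measures the spread between mice, no test of the antibody is possible, and every statement compares 2 libraries. Values in parentheses after a share, level or ratio are exact 95% intervals, which cover counting error only. Ratios are anti-PD-1 over IgG. A gene counts as higher or lower past the fold only when its ratio is at least 1.5 in that direction and it has at least 50 UMIs over both libraries of the class. Medians of gene lists are on the log2 scale. The share of all genes past the fold was counted for the wild-type pair only. Counts past the fold in the knockout pair therefore have no such share to be read against. The knockout libraries were shallower, with medians of 1221.5 UMIs per kept cell under IgG and 1339 under anti-PD-1.

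PD-1, encoded by Pdcd1, is an inhibitory receptor that T cells display after antigen contact, and its ligand PD-L1, encoded by Cd274, is carried by myeloid and tumour cells. An antibody that blocks the pair releases a brake on T cell receptor signalling, and activated CD8 T cells kill with granzymes and perforin and secrete interferon-gamma. Interferon-gamma acts on neighbouring cells through transcription factors such as Irf1, which turn on guanylate-binding proteins, the chemokines Cxcl9 and Cxcl10 that attract Cxcr3-bearing T cells, and the MHC class I machinery that shows peptides to CD8 T cells.

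The 2 libraries were close in depth, with totals of 22506737 UMIs under IgG and 22369904 under anti-PD-1 and medians of 2026 and 1880 UMIs per kept cell. Asf1a, the gene that differs between the pairs, stood at 33.6 CPM (26.0 to 42.7) and 29.8 CPM (22.4 to 38.8) in tumour cells of the wild-type libraries. It stood at 9.72 and 7.65 CPM in those of the knockout libraries. Some transcripts moved the same way in nearly every class of cell. Scgb1a1, a secretory protein of airway club cells, was lower past the fold under anti-PD-1 in 11 of 12 classes where it was measured. Ccl5, a chemokine of cytotoxic lymphocytes, lay above 1 in 12 of 13 classes, B cells and plasma cells included, and past the fold in 9. Over all gene and class pairs of 12 classes, 4.69% were higher and 3.32% lower past the fold. The part of free RNA caught in droplets, which can differ between libraries, was not tested. Scgb1a1 went the other way in the knockout pair, with ratios of 4.16 in macrophages and 22.1 in CD8-gated T cells.

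The shares of CD8-gated T cells and monocytes were larger under anti-PD-1, and that of neutrophils smaller, in both pairs by their intervals. T cells made up 30.6% (29.4 to 31.8) of cells under IgG and 32.0% (30.8 to 33.2) under anti-PD-1, a ratio of 1.05 (0.98 to 1.12) that counting error can give. Within them the make-up shifted. Cells with Cd8a or Cd8b1 and no Cd4 were 41.0% (38.7 to 43.4) of T cells under IgG, or 709 of 1729. Under anti-PD-1 they were 55.0% (52.8 to 57.2), or 1088 of 1977, a ratio of 1.34 (1.22 to 1.48). With T cells thinned to 1000 UMIs before gating, which left out 160 and 299 shallower cells, the shares were 31.5% and 46.6%. The gate needs a UMI of a Cd8 gene. In CD8-gated cells thinned after gating, Cd8a was seen in 41.75% (38 to 45.6) under IgG and 51.95% (48.8 to 55.1) under anti-PD-1. The part of this difference in detection in the larger gated share was not tested. The CD8-gated share of T cells in the knockout pair had a ratio of 1.15 (1.01 to 1.32).

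CD4-gated T cells, which had Cd4 but neither Cd8 gene nor Foxp3, were 14.6% of T cells under IgG and 11.5% under anti-PD-1, a ratio of 0.79 (0.66 to 0.95). After the same thinning the shares were 7.65% and 6.97%, a ratio of 0.91 (0.70 to 1.19), so the difference was within counting error. The knockout pair moved the opposite way, at 1.59 (1.23 to 2.08). Foxp3-positive regulatory cells, which restrain other T cells, were 2.95% and 2.93% of T cells, with a ratio of 0.99 (0.67 to 1.48). T cells in no gate were the balance, at 41.4% and 30.5%.

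Monocytes, the blood precursors of tissue macrophages, also had a larger share under anti-PD-1. Classical monocytes were 3.45% (2.99 to 3.96) of cells under IgG and 5.68% (5.11 to 6.28) under anti-PD-1, a ratio of 1.65 (1.38 to 1.97), and 1.6 (1.38 to 1.86) in the knockout pair. Non-classical monocytes, which patrol vessel walls, had a ratio of 1.56 (1.18 to 2.07) and of 2.29 in the knockout pair. Macrophages were 7.71% and 7.70%, a ratio of 1.00 (0.88 to 1.14). Alveolar macrophages, which patrol the air spaces, were few, at 22 and 42 cells, with a ratio of 1.75 (1.02 to 3.07) and of 1.90 (1.14 to 3.24) in the knockout pair. Neutrophils, the largest class under IgG, were 33.1% (31.8 to 34.3) under IgG and 27.5% (26.4 to 28.6) under anti-PD-1, a ratio of 0.83 (0.78 to 0.89) with 0.83 in the knockout pair. Shares sum to the whole library, so a smaller share of one class and larger shares of others cannot be told apart here.

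Among lymphocytes other than T cells, plasma cells, which secrete antibody, were 2.60% and 1.57%, a ratio of 0.60 (0.46 to 0.79), and 0.74 (0.54 to 1.01) in the knockout pair. B cells were 7.14% and 8.80%, a ratio of 1.23 (1.08 to 1.41), against 0.66 (0.54 to 0.82) in the knockout pair. NK cells had a ratio of 0.99 (0.83 to 1.18). Conventional dendritic cells, which prime T cells, had a ratio of 1.13 (0.93 to 1.38). The cross-presenting subset cDC1 numbered 24 and 42 cells, a ratio of 1.6 (0.95 to 2.77). Tumour cells were 2.30% and 2.02%, or 130 and 125 cells, a ratio of 0.88 (0.68 to 1.13), and 0.64 in the knockout pair. The share of tumour cells in a digested lung is not tumour burden, and the wild-type interval includes 1.

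**Figure D1:**
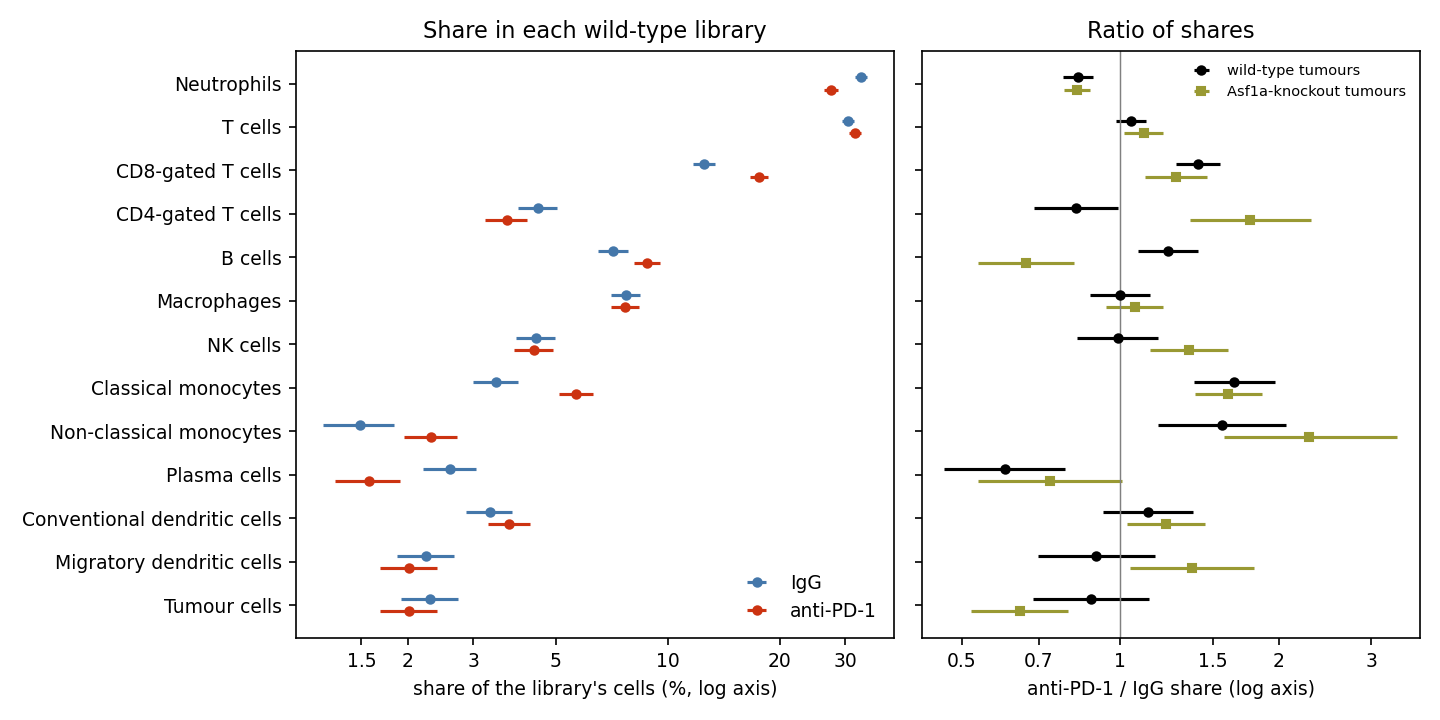
Share of each class among the cells of the IgG (blue) and anti-PD-1 (red) wild-type libraries in percent on a log axis (left), and the anti-PD-1 over IgG ratio of shares in wild-type (black circles) and Asf1a-knockout (olive squares) tumours on a log axis (right), with exact 95% counting intervals as bars. CD8-gated T cells and both monocyte classes lie above 1 in both pairs and neutrophils below 1 in both, while B cells and CD4-gated T cells lie on opposite sides.

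CD8-gated T cells of the anti-PD-1 library carried more effector transcripts and fewer transcripts of resting, recirculating cells. Of 6975 genes tested in them, 523 (7.5%) were higher past the fold and 134 (1.92%) lower. The median gene lay at 0.14 on the log2 scale, so list values are read against 0.14. Scaling by TMM factors instead gave 288 higher and 246 lower, and median-of-ratios factors 261 and 266, so the excess of higher genes depends on the scaling. Of the 12 higher genes that the size rule named, 9 were measured in the knockout pair and 9 lay above 1 there. Of the 12 lower genes named, 10 were measured and 6 lay on the same side, with Scgb1a1 among the exceptions. Of 4136 genes measured in both pairs, 59.0% lay on the same side, directions pooled, and 2156 above 1 in the knockout pair.

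The cytotoxic list had 18 members tested, of which 9 were higher past the fold and 0 lower, with a median of 0.56. Gzmb, the granzyme that starts death in target cells, stood at 93.5 CPM under IgG and 274.5 CPM under anti-PD-1, a ratio of 2.93 (2.53 to 3.42). Gzmk, a granzyme of effector-memory cells, stood at 66.4 CPM under IgG and 139.9 CPM under anti-PD-1, a ratio of 2.11 (1.75 to 2.55). Prf1, the pore former perforin, stood at 28.8 CPM under IgG and 47.8 CPM under anti-PD-1, a ratio of 1.66 (1.23 to 2.25). All these killer genes were thus higher in the anti-PD-1 library, though by unequal folds. Ccl5 reached 6509 and 15910 CPM, a ratio of 2.44 (2.4 to 2.49). The death ligand Fasl had a ratio of 1.54 (1.2 to 1.99) and the granule protein Nkg7 one of 1.55 (1.5 to 1.61). The Nkg7 difference was not particular to this gate. It lay above 1 in 11 of 12 classes where it was measured and past the fold in 7, with a median log2 ratio of 0.65. Gzma, at 1.27, and the protease Ctsw, at 0.994, stayed under the fold. Ifng itself stood at 61.8 CPM under IgG and 84 CPM under anti-PD-1, a ratio of 1.36 (1.1 to 1.68), above 1 by its interval and under the fold. Gzmc had 12 and 68 UMIs, but 1 cell held 69.1% of those under anti-PD-1. The knockout ratio was 11.6 (7.37 to 19.3) for Gzmb, 3.38 for Ccl5 and 1.92 for Ifng.

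Inhibitory receptors, which T cells gain with repeated antigen contact, were higher together with the killer genes. The cytotoxic and inhibitory lists share Klrc1. Of 9 tested, 7 were higher past the fold and 1 lower, with a median of 0.94. Pdcd1, the receptor that the antibody binds, stood at 66 CPM under IgG and 141 CPM under anti-PD-1, a ratio of 2.14 (1.78 to 2.59). Lag3, which reads MHC class II, stood at 92.3 CPM under IgG and 194 CPM under anti-PD-1, a ratio of 2.1 (1.79 to 2.46). Havcr2, which encodes TIM-3, stood at 13.4 CPM under IgG and 32.3 CPM under anti-PD-1, a ratio of 2.42 (1.6 to 3.74). The receptor Ctla4 had a ratio of 1.91 (1.64 to 2.24) and the ectonucleotidase Entpd1, or CD39, one of 2.49 (1.55 to 4.14). Btla was the member on the other side, at 0.638 (0.349 to 1.15), an interval that includes 1. Pdcd1 had a ratio of 2.95 (2.01 to 4.46) in knockout tumours, Lag3 2.57 (1.85 to 3.64) and Havcr2 1.85 (0.766 to 4.92).

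The regulators of T cell state divided the same way. Among 18 effector and exhaustion transcription factors, 6 were higher and 2 lower past the fold. Prdm1, which encodes Blimp-1 and drives terminal effector cells, stood at 23 CPM under IgG and 55.9 CPM under anti-PD-1, a ratio of 2.43 (1.78 to 3.37). Maf stood at 12.9 CPM under IgG and 39.7 CPM under anti-PD-1, a ratio of 3.07 (2.05 to 4.72), and Tox, a factor of exhausted cells, at 62.6 CPM under IgG and 115 CPM under anti-PD-1, a ratio of 1.83 (1.51 to 2.24). The knockout pair gave 1.24 for Maf and 1.19 for Tox, both under the fold. Tcf7, which encodes TCF-1 and keeps T cells stem-like, stood lower, at 212 CPM under IgG and 141 CPM under anti-PD-1, a ratio of 0.664 (0.581 to 0.758). Id3 had a ratio of 0.554 (0.328 to 0.923).

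Naive and recirculation genes were below 1 in all 13 members tested, 5 of them past the fold, with a median of −0.54 against 0.14 over all genes. The list shares Tcf7 and Id3 with the list before it. Lef1, a partner of TCF-1, stood at 129.5 CPM under IgG and 78.7 CPM under anti-PD-1, a ratio of 0.608 (0.51 to 0.724), and Ccr7, which guides cells into lymph nodes, had a ratio of 0.732 (0.633 to 0.846). The cytokine receptor Il7r was at 0.8. The list median in knockout tumours was −1.01, with 12 of 13 lower past the fold. Tissue residency genes went the other way, with 5 of 7 higher and a median of 0.75. That list shares Prdm1 with the transcription factor list. The chemokine receptor list shares Cxcr6 with it and Ccr7 with the naive list, so these lists are not independent. Cxcr6, a chemokine receptor of lung-resident T cells, stood at 195 CPM under IgG and 414 CPM under anti-PD-1, a ratio of 2.12 (1.91 to 2.37). Of 8 chemokine receptors, 4 were higher past the fold.

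The share of CD8-gated cells with a UMI of each gene moved as the levels did. After thinning to 1000 UMIs, which left out 36 and 114 shallower cells, Gzmb was seen in 4.46% of cells under IgG and 10.2% under anti-PD-1, against 8.89% and 16.3% unthinned. Pdcd1 was seen in 5.79% and 12.5% (15.7% and 24.1% unthinned). Tcf7 was seen in 19.6% and 12.3% (42.3% and 23.4% unthinned). B cells, which should lack Gzmb and Pdcd1, showed Gzmb in 0.256% and 0.967% of thinned cells and Pdcd1 in 0% and 0.580%, so the T cell shares stood well above that background. Median depths were 2977 and 2269.5 UMIs in the CD8-gated cells and 1614.5 and 1499 in the B cells. Ccl5 differs: B cells showed it in 17.1% and 29.2% of thinned cells, beside 60.9% and 79.1% of CD8-gated cells.

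Per cell, the cytotoxic list made up a median of 58.7 UMIs per 10000 under IgG and 177.6 under anti-PD-1. The naive list lay the other way, at medians of 17.4 and 7.15. These levels mix the kinds of CD8 cell present with what each kind expressed. In the CD8-gated cells of cluster 13 (252 and 682 cells), whose leading genes include Cxcr6 and Ccl5, 0 of 17 cytotoxic members were higher past the fold, with a median of 0.12. Of its 8 inhibitory receptors 0 were past the fold, with a median of 0.32. In cluster 5 (359 and 293 cells), whose leading genes include Lef1, Tcf7 and Dapl1, 0 of 12 naive members were past the fold, with a median of 0.03. Within cluster 13 Gzmb had a log2 ratio of 0.54 (0.25 to 0.83) and Pdcd1 one of 0.30 (0.00 to 0.62), while Ifng had −0.52 (−0.85 to −0.18). Maf stood at 1.84 (0.78 to 3.11) and Prdm1 at 0.77 (0.20 to 1.38). In cluster 13 the killer and inhibitory genes thus differed by less than over the whole gate. The smaller cluster 14 (37 and 57 cells) did not follow this for every gene, with Gzmb at 2 (1.59 to 2.42), Lag3 at 2.02 (1.03 to 3.15) and Ccl5 at 1.39 (1.27 to 1.51). There 3 of 12 cytotoxic members and 2 of 4 inhibitory receptors were higher past the fold. Clusters were drawn from these same genes, so the values inside them are a description.

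**Figure D2:**
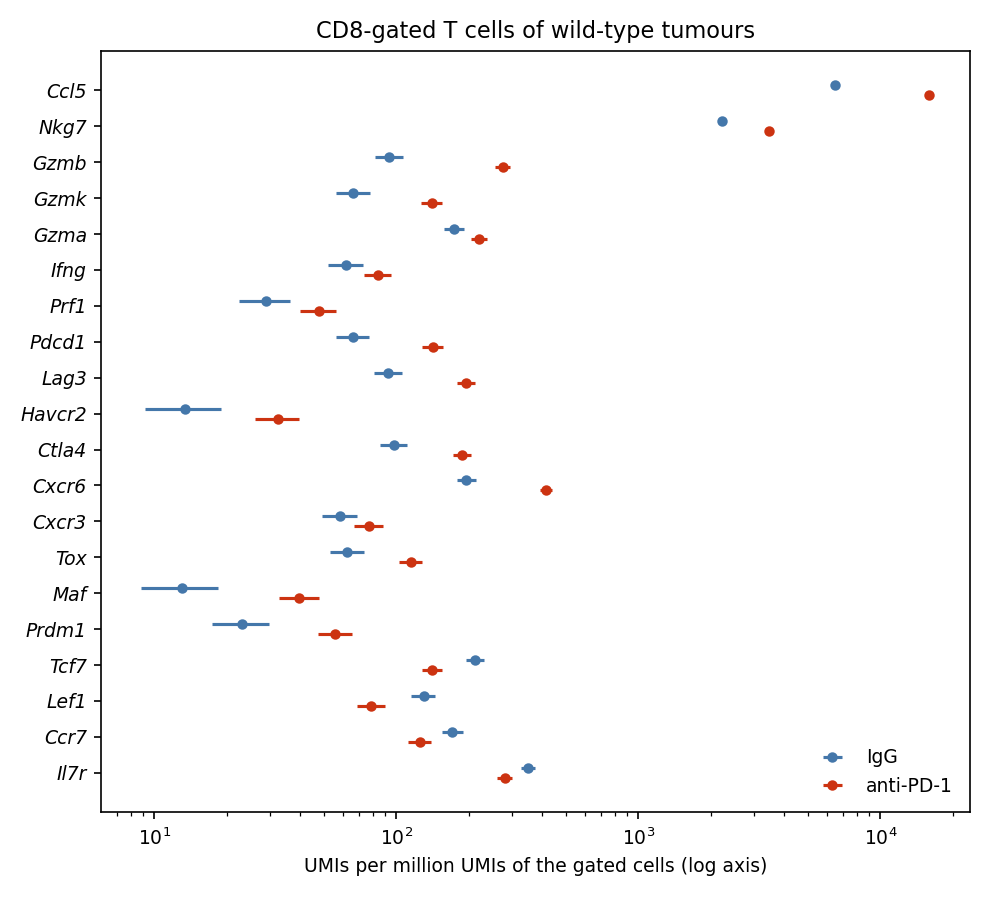
Levels of 20 genes in CD8-gated T cells of wild-type tumours in CPM of the gated cells (log axis), under IgG (blue) and anti-PD-1 (red), with exact 95% counting intervals as bars. Effector and inhibitory-receptor genes from Ccl5 to Prdm1 lie higher under anti-PD-1, and Tcf7, Lef1, Ccr7 and Il7r lie lower.

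Genes of other cell types also moved within the CD8 gate. MHC class II genes, which mark antigen-presenting cells, were higher past the fold in 6 of 9 members tested. H2-Ab1 stood at 170.4 CPM under IgG and 308 CPM under anti-PD-1, a ratio of 1.81 (1.6 to 2.04), and in Cd74 1 cell held 18% of the UMIs under anti-PD-1. The 8 B cell markers summed to 19.2 CPM under IgG, with 1 at 0, and to 54.8 CPM under anti-PD-1, with none at 0. The 10 neutrophil markers summed to 970.9 and 626.6 CPM, beside 5119 and 6446 CPM for the 9 T cell markers. Erythroid transcripts also stood higher under anti-PD-1 in each class measured: over 13 classes the 5 markers summed to 0 to 14.8 CPM under IgG and to 5.52 to 239.6 CPM under anti-PD-1, with 2.92 and 105.4 CPM in this gate. The part of these other-cell transcripts in the results of this gate was not tested. Cell-cycle genes differed little, with 2 of 25 proliferation genes higher and Mki67 at 1.1 (0.923 to 1.31), whereas in the knockout pair 12 of 18 were higher.

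CD4-gated T cells, 253 and 228 cells, had 3 of 7 cytotoxic members tested and 3 of 3 inhibitory receptors higher past the fold. Of 2824 genes tested, 266 (9.42%) were higher and 66 (2.34%) lower past the fold, and the median gene lay at 0.14. TMM scaling gave 136 higher and 144 lower. Ccl5 stood at 812 CPM under IgG and 2807 CPM under anti-PD-1, a ratio of 3.46 (3.12 to 3.83), and Nkg7 at 611 CPM under IgG and 1813 CPM under anti-PD-1, a ratio of 2.97 (2.63 to 3.35). Lag3 stood at 114 CPM under IgG and 342 CPM under anti-PD-1, a ratio of 3.01 (2.27 to 4.02), beside Pdcd1 at 1.67 (1.2 to 2.34) and Ctla4 at 1.65 (1.36 to 2). These 3 receptors were all the inhibitory members tested, with a median of 0.74. Gzmb had only 11 and 27 UMIs in this gate and was not tested. Cxcr6, a chemokine receptor of tissue-resident T cells, had a ratio of 2.3 (1.81 to 2.94). The mitotic topoisomerase Top2a, at 3.42 (2.27 to 5.27), led 3 of 5 proliferation genes past the fold, and in the knockout pair it had 0.675. In the gate's cells of cluster 10 (153 and 157 cells) 0 of 3 proliferation genes passed the fold, with a median of 0.06. After thinning to 1000 UMIs, Mki67 was seen in 4% and 6.08% of CD4-gated cells, a ratio of 1.52 (0.57 to 4.15).

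Some resting genes were lower in the CD4 gate. Of 11 naive and recirculation genes 4 were lower past the fold and 0 higher, with a median of −0.48. Lef1 stood at 191 CPM under IgG and 109 CPM under anti-PD-1, a ratio of 0.568 (0.403 to 0.79) and Igfbp4, a gene of naive CD4 cells, at 256 CPM under IgG and 139 CPM under anti-PD-1, a ratio of 0.544 (0.404 to 0.726). Tcf7 stayed under the fold at 0.836 (0.651 to 1.07). The gate's cells of cluster 5 numbered 93 and 49, beside 153 and 157 of cluster 10. Inside cluster 5, 0 of 11 naive members were past the fold, with a median of −0.05, and inside cluster 10, 1 of 6 was higher and 0 lower, with a median of −0.25. Knockout tumours gave Lef1 a ratio of 0.256 (0.128 to 0.484) and Igfbp4 of 0.0989. Of the genes named by size, 7 of 11 measured higher genes and 3 of 9 lower genes lay on the same side in knockout tumours. Of 1224 genes measured in both pairs, 57.6% lay on the same side, directions pooled, and 665 above 1 in the knockout pair. The Foxp3-gated cells numbered 51 and 58, and their 9 regulatory identity genes with 50 UMIs had a median of −0.21, against −0.03 over all genes tested in that gate.

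NK cells, which kill without antigen receptors, had the same share in both libraries but more transcripts of some genes of the mature form under anti-PD-1. Of 3188 genes tested 167 (5.24%) were higher and 110 (3.45%) lower. Cx3cr1, the chemokine receptor of mature NK cells, stood at 18 CPM under IgG and 74.1 CPM under anti-PD-1, a ratio of 4.12 (2.15 to 8.55). Zeb2, a factor of terminal maturation, stood at 86.9 CPM under IgG and 221 CPM under anti-PD-1, a ratio of 2.54 (1.86 to 3.52), and the maturation marker Klrg1 at 61.4 CPM under IgG and 132 CPM under anti-PD-1, a ratio of 2.15 (1.46 to 3.21). Of the 18 maturation and Ly49 genes 14 lay above 1 and 5 past the fold, with a median of 0.33. The knockout list median was −0.19 and Zeb2 had a ratio of 0.661, while Cx3cr1 had 1.84 and Klrg1 1.64.

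Of 17 cytotoxic genes tested in NK cells, 12 lay above 1 and 3 were higher past the fold. Gzma, a granzyme of the granules, stood at 8997 CPM under IgG and 14800 CPM under anti-PD-1, a ratio of 1.65 (1.59 to 1.7), and Gzmb at 1.48 was just under the fold. Xcl1, which attracts cDC1, stood at 1323 CPM under IgG and 677 CPM under anti-PD-1, a ratio of 0.512 (0.454 to 0.575), and in the knockout pair at 0.64 (0.565 to 0.725). The aryl hydrocarbon receptor Ahr had a ratio of 0.396 (0.228 to 0.664). Ifng did not differ beyond counting error, at 0.958 (0.658 to 1.39). In 4 of 6 MHC class II genes NK cells were lower past the fold, with a median of −1.25, and in the knockout pair 4 of 6 were higher. NK cells have little MHC class II of their own, and the part of free RNA in these values was not tested.

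The interferon-gamma list lay above 1 in most gene and class pairs, with its calls gathered in some classes. Over 12 classes, 28 genes of the list gave 156 gene and class pairs with 50 UMIs, and 122 (78.2%) lay above 1, with 60 higher and 2 lower past the fold. Over all 56127 gene and class pairs 55% lay above 1, with 4.69% higher and 3.32% lower past the fold. MHC class I genes were above 1 in 193 of 228 pairs (84.6%), and the type I interferon list in 93 of 123 (75.6%). In the knockout pair the shares above 1 were 78.6%, 79.9% and 78.5% in that order, against 44.4% over all pairs measured there. Cxcl9 was past the fold in 5 of 5 classes with enough UMIs, and Gbp2 in 5 of 10. Cd274, the PD-L1 gene and itself a target of interferon-gamma, was above 1 in 6 of 6 classes but past the fold in 0. The list had 20 of 26 members higher past the fold in macrophages and 10 of 12 in tumour cells, but 2 of 21 in CD8-gated T cells, 2 of 13 in classical monocytes, 0 of 9 in B cells and 0 of 6 in NK cells. The pairs share libraries and genes and are not independent.

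Promoters of the list are shown to set the interferon motifs beside these values. Interferon-gamma signalling acts through the gamma-activated site, written TTCNNNGAA, and interferon regulatory factors bind the element searched as its core GAAANNGAA, both on either strand. From RefSeq's table for GRCm38.p6, 250 bases before to 50 bases after each start were searched, which covered 21 promoters of 19 of the 32 list genes. The gamma-activated site was found in 9 promoters (42.9%) and the interferon core in 14 (66.7%), beside 8.3% and 8.56% of all 32851 promoters. The 250 bases before the start are printed for 4 genes picked by hand from the list, on the strand of the gene, with the matches in capitals. Only promoters with a match were printed. Another Irf1 promoter, at chr11:53770223-53770522, holds 0 matches of either motif. They are Irf1 at chr11:53769764-53770013 (plus strand), Cxcl9 at chr5:92328080-92328329 (minus), Gbp2 at chr3:142620413-142620662 (plus) and Gbp5 at chr3:142496684-142496933 (plus).
Irf1: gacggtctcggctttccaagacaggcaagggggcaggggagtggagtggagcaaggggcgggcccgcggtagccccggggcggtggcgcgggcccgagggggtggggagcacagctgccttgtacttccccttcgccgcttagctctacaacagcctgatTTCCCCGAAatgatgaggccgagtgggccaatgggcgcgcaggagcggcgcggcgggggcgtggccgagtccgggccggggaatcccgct
Cxcl9: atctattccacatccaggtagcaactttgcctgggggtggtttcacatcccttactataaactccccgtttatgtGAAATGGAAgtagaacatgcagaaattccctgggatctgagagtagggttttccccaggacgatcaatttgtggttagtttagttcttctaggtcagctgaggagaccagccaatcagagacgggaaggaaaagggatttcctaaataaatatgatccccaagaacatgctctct
Gbp2: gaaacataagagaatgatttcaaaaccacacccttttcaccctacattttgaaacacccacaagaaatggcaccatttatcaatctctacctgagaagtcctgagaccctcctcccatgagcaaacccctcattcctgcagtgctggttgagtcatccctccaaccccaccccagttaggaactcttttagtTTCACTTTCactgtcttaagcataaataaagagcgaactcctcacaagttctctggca
Gbp5: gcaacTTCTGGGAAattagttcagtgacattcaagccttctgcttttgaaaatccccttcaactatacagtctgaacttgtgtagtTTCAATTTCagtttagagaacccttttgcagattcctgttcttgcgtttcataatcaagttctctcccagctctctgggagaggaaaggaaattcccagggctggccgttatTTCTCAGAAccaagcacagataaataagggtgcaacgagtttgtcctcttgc
In the printed bases Irf1 holds 1 gamma-activated site, Cxcl9 and Gbp2 hold 1 interferon core each, and Gbp5 holds 2 gamma-activated sites and 1 core. A match describes the letters only, since no binding was measured.

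**Figure D3:**
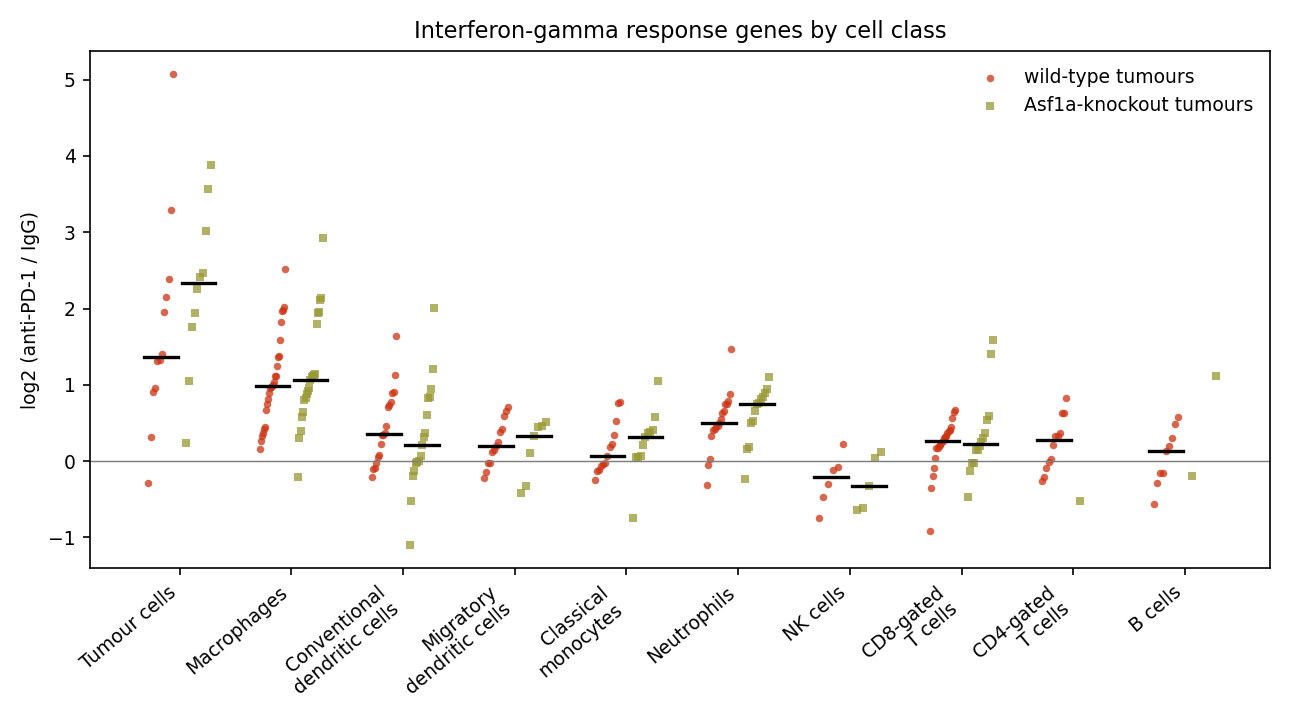
The log2 ratio (anti-PD-1 over IgG) of each interferon-gamma response gene with at least 50 UMIs in the pair, in 10 cell classes of wild-type (red circles) and Asf1a-knockout (olive squares) tumours, with black bars at the medians. The medians in wild-type tumours are highest in tumour cells (1.37) and macrophages (0.99), and in NK cells the points lie around or below 0.

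Macrophages, the tissue phagocytes that surround tumours, had the most interferon-gamma genes past the fold of the 12 classes, though tumour cells had the higher median. Of 8028 genes tested 257 (3.2%) were higher and 180 (2.24%) lower past the fold. Of the 26 interferon-gamma genes tested 26 lay above 1 and 20 were past the fold, with a median of 0.99 against 0.01 over all genes. Of the 12 higher genes named by size, 8 were measured in the knockout pair. All 8 lay on the same side there, and 8 were past the fold. Of 7320 genes measured in both pairs, 52.4% lay on the same side at any size, directions pooled, and 3060 above 1 in the knockout pair. The summed macrophage markers hardly differed, at 27500 and 26870 CPM, and 9 T cell markers summed to 106.7 and 109.1 CPM.

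The chemokines Cxcl9 and Cxcl10 and the signalling genes Irf1 and Socs1 were higher past the fold. Cxcl9, which draws Cxcr3-bearing T cells, stood at 86.3 CPM under IgG and 341 CPM under anti-PD-1, a ratio of 3.95 (3.52 to 4.45), from 360 and 1460 UMIs. Cxcl10 stood at 102 CPM under IgG and 199.7 CPM under anti-PD-1, a ratio of 1.96 (1.74 to 2.21). Irf1, with a promoter printed above, stood at 22.8 CPM under IgG and 45.6 CPM under anti-PD-1, a ratio of 2 (1.56 to 2.58). Every one of these was above the IgG library by its interval. Socs1, the feedback inhibitor of the same pathway, stood at 2.88 CPM under IgG and 11.7 CPM under anti-PD-1, a ratio of 4.06 (2.13 to 8.38). Cxcl9 had a knockout ratio of 2.21 (1.85 to 2.64) and Irf1 of 1.94 (1.36 to 2.79).

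Effector proteins that act against intracellular microbes followed. The guanylate-binding protein Gbp2 stood at 79.1 CPM under IgG and 237 CPM under anti-PD-1, a ratio of 3 (2.64 to 3.4) and Gbp5 at 10.6 CPM under IgG and 27.3 CPM under anti-PD-1, a ratio of 2.59 (1.82 to 3.75). Gbp3, Gbp4, Gbp7 and Gbp9 had ratios of 2.16, 2.37, 1.59 and 1.68, and Gbp2b one of 5.73 (2.68 to 14) from 8 and 47 UMIs. Immunity-related GTPases were alike, with Iigp1 at 3.53 (2.4 to 5.32), Igtp at 1.97 (1.5 to 2.61) and Ifi47 at 2.16 (1.8 to 2.6). The stem-cell antigen Ly6a, known to respond to interferon, stood at 57 CPM under IgG and 182 CPM under anti-PD-1, a ratio of 3.19 (2.75 to 3.7), and complement factor B, Cfb, had a ratio of 2.66 (2.19 to 3.24). Knockout tumours gave Gbp2 4.42 (3.52 to 5.58) and Ly6a 3 (2.38 to 3.81).

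Antigen presentation was higher in part. Of 20 MHC class I genes 19 lay above 1 and 5 past the fold, with a median of 0.43. Tap1, the peptide transporter, stood at 53.9 CPM under IgG and 102 CPM under anti-PD-1, a ratio of 1.89 (1.61 to 2.23), and the immunoproteasome subunit Psmb9 at 1.53 (1.38 to 1.71). Nlrc5, the regulator of class I genes, had a ratio of 2.05 (1.44 to 2.97), and Ciita, that of class II genes, 1.2 (0.956 to 1.5). Of the class II list 11 of 12 lay above 1 but 2 past the fold, with H2-Ab1 at 1.34 (1.32 to 1.37). Cd274 stood at 60.4 CPM under IgG and 80.6 CPM under anti-PD-1, a ratio of 1.33 (1.13 to 1.58), above 1 and under the fold, and the knockout pair gave 0.866 (0.705 to 1.06). Of 20 type I interferon genes 15 lay above 1, with 7 higher and 1 lower past the fold and a median of 0.37. Oas3 had 2.32 (1.37 to 4.07), while Ifit3 stood lower at 0.5 (0.331 to 0.745) and Rsad2 at 0.886 (0.7 to 1.12).

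Genes of tissue-remodelling macrophages were lower in part. Arg1, which consumes arginine, stood at 1343 CPM under IgG and 884 CPM under anti-PD-1, a ratio of 0.658 (0.632 to 0.686), with 0.899 in the knockout pair. The chemokine Ccl24 stood at 398 CPM under IgG and 173 CPM under anti-PD-1, a ratio of 0.435 (0.398 to 0.474), and Pf4 at 323 CPM under IgG and 152 CPM under anti-PD-1, a ratio of 0.47 (0.427 to 0.516). Pf4 is also a platelet gene, and the 5 platelet markers, Pf4 among them, summed to 329.6 and 154.4 CPM. Of 12 genes linked to alternative activation 3 were lower and 1 higher past the fold, and the higher one, Retnla, rested on 1 cell with 79% of its UMIs. The mannose receptor Mrc1 was at 0.975, the lipid-associated gene Trem2 at 0.857, and 0 of 18 lipid-associated genes passed the fold. F13a1 and Vcan, genes of monocyte-derived cells, had ratios of 0.498 (0.414 to 0.598) and 0.494 (0.414 to 0.587). Of the 12 lower genes named by size 10 were measured in the knockout pair, 9 on the same side and 4 past the fold. Nos2, the inducible nitric oxide synthase, had 2 and 43 UMIs, of which 1 cell held 58.1% under anti-PD-1.

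Both macrophage clusters showed the interferon difference. In cluster 8 (168 and 179 cells) 11 of 18 interferon-gamma genes were higher past the fold and in cluster 9 (268 and 297 cells) 18 of 23, with medians of 0.65 and 1.07 and none lower. Cluster 8 is led by Gpnmb, Apoe and Trem2 and cluster 9 by Arg1, C1qa and Ccl24. Cxcl9 had a log2 ratio of 3.21 (2.74 to 3.72) in cluster 8 and 1.72 (1.54 to 1.90) in cluster 9. The lower Arg1 was a matter of cluster 9, at −0.64 (−0.70 to −0.58), since in cluster 8 it was at 0.70 (0.30 to 1.11). After thinning to 1000 UMIs, which left out 1 and 5 cells, Cxcl9 was seen in 4.83% and 15.1% of macrophages (13.3% and 29.2% unthinned), a ratio of 3.12 (1.90 to 5.35).

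**Figure D4:**
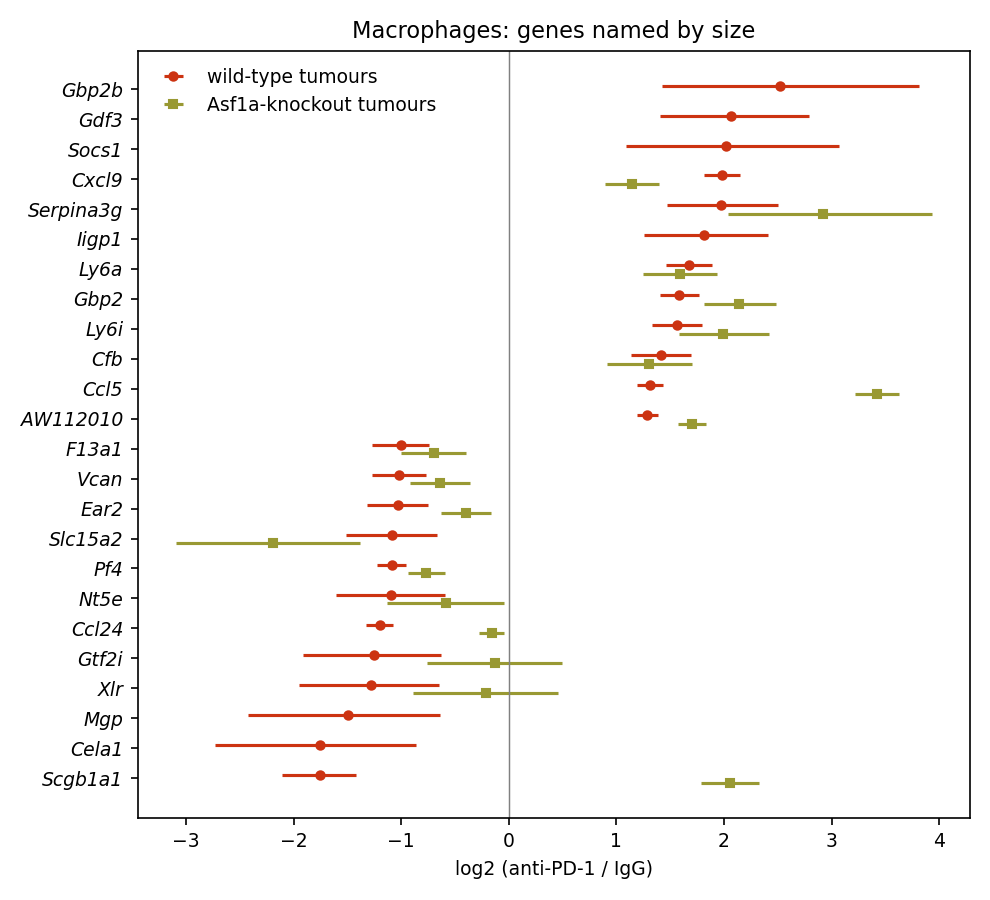
Log2 ratio (anti-PD-1 over IgG) in macrophages of the 12 higher and 12 lower genes named by size in wild-type tumours (red circles), with the Asf1a-knockout pair (olive squares) where it has at least 50 UMIs and exact 95% counting intervals as bars. The 8 higher genes measured in knockout tumours lie to the right of 0 there, and Scgb1a1, a club cell transcript, lies on opposite sides.

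Both monocyte classes had a larger share, and few interferon-gamma genes passed the fold in the classical ones. In classical monocytes 194 of 5182 genes (3.74%) were higher and 142 (2.74%) lower. Of 13 interferon-gamma genes 2 were higher past the fold with a median of 0.07, and Gbp2, at 0.926 (0.661 to 1.31), and Irf1, at 0.957 (0.664 to 1.39), did not differ beyond counting error. MHC class II genes were higher in 2 of 10 members: H2-Eb1 stood at 528 CPM under IgG and 938 CPM under anti-PD-1, a ratio of 1.78 (1.62 to 1.96), and H2-Ab1 at 1268 CPM under IgG and 1929 CPM under anti-PD-1, a ratio of 1.52 (1.43 to 1.62). Those genes had knockout ratios of 0.984 (0.927 to 1.04) and 1.02 (0.98 to 1.06). The fatty-acid binding protein Fabp5 had a ratio of 2.25 (1.92 to 2.66) and the neutrophil granule gene Lrg1 one of 0.241 (0.157 to 0.362), against 0.563 and 1.32 in the knockout pair. Of the higher genes named by size, 5 of 11 lay on the same side there. Of 4964 genes measured in both pairs, 47.1% lay on the same side, directions pooled, and 2115 above 1 in the knockout pair. In non-classical monocytes 92 of 1636 genes (5.62%) were higher and 49 (3%) lower. There 7 of 7 MHC class II genes lay above 1 and 3 past the fold, with H2-Ab1 at 1210 CPM under IgG and 1968 CPM under anti-PD-1, a ratio of 1.63 (1.42 to 1.88), and in the knockout pair 4 of 7 were past the fold.

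Neutrophils had a smaller share and a moderate interferon difference. Of 5977 genes tested 170 (2.84%) were higher and 167 (2.79%) lower past the fold. Of 17 interferon-gamma genes 15 lay above 1 and 7 past the fold, with a median of 0.50. Gbp2 stood at 123 CPM under IgG and 213 CPM under anti-PD-1, a ratio of 1.73 (1.5 to 2.01) and Irf1 at 123 CPM under IgG and 194 CPM under anti-PD-1, a ratio of 1.58 (1.36 to 1.83). Ifi27l2a, a small interferon-induced protein, stood at 345 CPM under IgG and 600.2 CPM under anti-PD-1, a ratio of 1.74 (1.59 to 1.9). The type I list had 6 of 21 higher and 0 lower, and 19 of 20 MHC class I genes lay above 1, with H2-K1 at 1.37 (1.29 to 1.45). Cxcl10 had a ratio of 0.965 (0.858 to 1.08), an interval that includes 1. Of 13 interferon-gamma genes measured in knockout tumours 8 were past the fold, with a median of 0.74. The interferon-gamma median was above 0 in each of 4 neutrophil clusters, at 0.47, 0.67, 1.36 and 0.45 in clusters 0, 2, 3 and 4. Cluster 3 was small, at 80 and 58 cells, and its median rests on 5 genes.

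Some hypoxia and glycolysis genes of neutrophils were lower. Of 18 tested, 4 were lower past the fold and 0 higher, with a median of −0.26, and in the knockout pair 5 of 18 were lower, with a median of −0.08. Hilpda, a lipid-droplet gene induced by low oxygen, stood at 224 CPM under IgG and 127 CPM under anti-PD-1, a ratio of 0.565 (0.486 to 0.654), but at 1.33 (1.16 to 1.52) in the knockout pair. Cluster 3, with 80 and 58 of the neutrophils, held 213 and 50 Hilpda UMIs, a log2 ratio of −1.48 (−1.95 to −1.03), and had 7 of 11 list genes lower. In cluster 4 Hilpda was at 0.02 (−0.41 to 0.44), with 0 of 16 lower, and in clusters 0 and 2 it was at −0.69 and −0.58, with 1 of 13 and 1 of 16 lower. The glycolytic enzyme Tpi1 had a ratio of 0.62 (0.507 to 0.754) and the glucose transporter Slc2a1 0.836 (0.678 to 1.03). Siglecf, a marker of tumour-associated neutrophils, stood at 159.6 CPM under IgG and 129 CPM under anti-PD-1, a ratio of 0.808 (0.691 to 0.945), under the fold, and at 0.511 (0.419 to 0.621) in the knockout pair. Lymphocyte transcripts were among the higher genes: Ccl5 had a ratio of 2.27 (2.06 to 2.51), Nkg7 of 1.86 (1.55 to 2.24) and Ms4a4b of 1.9 (1.44 to 2.52). Nkg7 and Ms4a4b are lymphocyte genes, and the part of free lymphocyte RNA was not tested. Gbp2 was seen in 4.28% and 6.41% of neutrophils thinned to 500 UMIs (7.91% and 11.8% unthinned), with 0 cells left out.

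**Figure D5:**
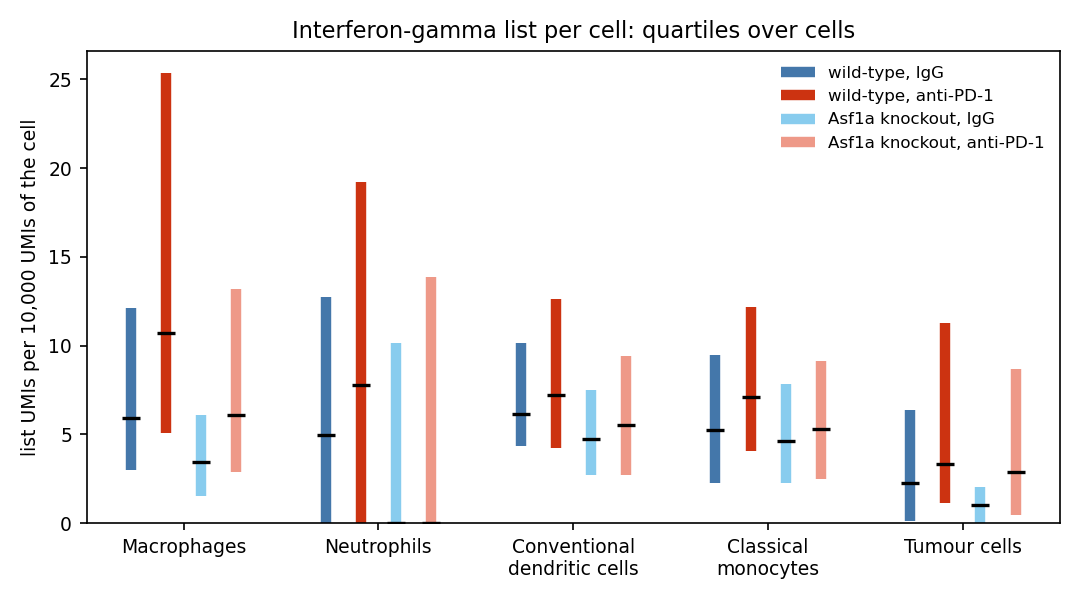
UMIs of the interferon-gamma response list per 10000 UMIs of each cell in 5 classes, as quartiles over cells (bars from the lower to the upper quartile, black lines at the medians), for the wild-type IgG (blue) and anti-PD-1 (red) and Asf1a-knockout IgG (light blue) and anti-PD-1 (light red) libraries. In macrophages the median was 5.91 under IgG and 10.7 under anti-PD-1 in wild-type tumours, and the upper quartile moved from 12.1 to 25.4.

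Per cell, the interferon-gamma list gave medians of 4.95 and 7.79 UMIs per 10000 in neutrophils, 5.22 and 7.11 in classical monocytes and 6.15 and 7.23 in conventional dendritic cells. The shift in macrophages, from 5.91 to 10.7, was the widest of these, and it was wider in the upper quartile than in the median. Knockout macrophages had 3.46 under IgG and 6.12 under anti-PD-1.

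Dendritic cells differed by subset. In conventional dendritic cells 266 of 5801 genes (4.59%) were higher and 182 (3.14%) lower. Of 18 interferon-gamma genes 7 were higher past the fold and 0 lower, with a median of 0.36. Cxcl9 stood at 75 CPM under IgG and 163.5 CPM under anti-PD-1, a ratio of 2.18 (1.78 to 2.68) and Cxcl10 at 18.6 CPM under IgG and 57.8 CPM under anti-PD-1, a ratio of 3.1 (2.11 to 4.68). In the few cDC1, Cxcl9 had 9 and 122 UMIs, a log2 ratio of 3.29 (2.315 to 4.45). In the larger subset cDC2 (164 and 190 cells) it had 132 and 192 UMIs, a log2 ratio of 0.62 (0.30 to 0.95). Knockout tumours gave Cxcl9 a ratio of 2.32 (1.69 to 3.21), but Cxcl10 had 0.468 (0.264 to 0.804). Irf8, the factor that makes cDC1, stood at 220.2 CPM under IgG and 357 CPM under anti-PD-1, a ratio of 1.62 (1.43 to 1.83), beside a cDC1 number of 24 and 42 cells. The chemokine Ccl17 stood lower, at 2045 CPM under IgG and 1143 CPM under anti-PD-1, a ratio of 0.559 (0.53 to 0.589). Proliferation genes were lower in 9 of 18, with Top2a at 0.437 (0.328 to 0.577) and Mki67 at 0.508 (0.359 to 0.713), whereas in the knockout pair 9 of 16 were higher. That list median, −0.68, turned to 0.09 with cells of at least 500 genes and to 0.07 at a finer clustering.

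Migratory dendritic cells, the mature form that carries antigen to lymph nodes, had 122 of 3208 genes (3.8%) higher and 141 (4.4%) lower. Isg15, a ubiquitin-like interferon target, stood at 117 CPM under IgG and 236 CPM under anti-PD-1, a ratio of 2.02 (1.58 to 2.58), against 0.966 in the knockout pair. Of 9 chemokines 5 were lower past the fold and 0 higher, among them Ccl17 at 0.586 (0.545 to 0.63) and Cxcl2 at 0.234 (0.176 to 0.306). The chemokine median was −0.75, and −0.05 after thinning to 1000 UMIs. The 10 neutrophil markers summed to 1090 CPM under IgG and 462 CPM under anti-PD-1 in these cells, with none at 0, and Cxcl2 itself stood at 16170 CPM under IgG and 13870 CPM under anti-PD-1, a ratio of 0.858 (0.845 to 0.871) in neutrophils. The part of neutrophil RNA was not tested. Il12b, a subunit of the cytokine that drives interferon-gamma production, stood at 340.3 CPM under IgG and 172 CPM under anti-PD-1, a ratio of 0.505 (0.408 to 0.621), with 1 cell holding 18.4% of its UMIs under IgG, and the knockout pair gave 2.66 (1.88 to 3.83). The DC maturation list was balanced, with 2 higher and 2 lower of 15.

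In B cells 154 of 3831 genes (4.02%) were higher and 80 (2.09%) lower. Egr3, an early gene of receptor signalling, stood at 59.3 CPM under IgG and 128.5 CPM under anti-PD-1, a ratio of 2.17 (1.54 to 3.1), against 0.69 in the knockout pair. Of the interferon-gamma list 0 of 9 passed the fold, and 16 of 20 MHC class I genes lay above 1. Jchain, the joining chain of secreted antibody and a gene of plasma cells, stood at 290.3 CPM under IgG and 120.3 CPM under anti-PD-1, a ratio of 0.414 (0.329 to 0.52). In plasma cells 107 of 2995 genes (3.57%) were higher and 207 (6.91%) lower. There 6 of 8 interferon-gamma genes were higher past the fold with a median of 0.79, among them Gbp7 at 2.17 (1.21 to 4.01), while the knockout pair measured 2 of them.

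Tumour cells were few, 130 and 125, but deep, with medians of 9513 and 9359 UMIs. Of 6482 genes tested 316 (4.88%) were higher and 406 (6.26%) lower past the fold. Their 9 epithelial markers summed to 9158 CPM under IgG and 6782 CPM under anti-PD-1, with 0 and 3 of the 9 at 0. The 12 macrophage markers summed to 3769 and 3135 CPM in the same cells, and the 9 T cell markers to 111.3 and 123 CPM. The part of such other-cell RNA in the tumour values was not tested. In the knockout pair 8 of the 12 higher genes named by size lay on the same side and 0 of 8 measured lower genes. Of 6286 genes measured in both pairs, 46.1% lay on the same side, directions pooled, and 2534 above 1 in the knockout pair.

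Part of the MHC class I machinery was higher in tumour cells. B2m, the light chain of every class I molecule, stood at 1437 CPM under IgG and 2629 CPM under anti-PD-1, a ratio of 1.83 (1.75 to 1.92), from 2826 and 4854 UMIs. The heavy chain H2-K1 stood at 246 CPM under IgG and 390 CPM under anti-PD-1, a ratio of 1.58 (1.41 to 1.78) and H2-D1 at 591 CPM under IgG and 932 CPM under anti-PD-1, a ratio of 1.58 (1.46 to 1.7). The immunoproteasome subunits Psmb8 and Psmb10 had ratios of 1.61 (1.16 to 2.26) and 1.61 (1.39 to 1.87). Of 15 class I genes 14 lay above 1 and 6 past the fold, with a median of 0.33. The knockout pair had 3.65 (3.5 to 3.82) for B2m and 4.65 (3.93 to 5.51) for H2-K1, with 10 of 13 past the fold. Per cell, the class I list had medians of 38.5 and 56.4 UMIs per 10000, beside 21.5 and 57.5 in the knockout pair. Thinned to 1000 UMIs, which left out 18 and 16 cells, B2m was seen in 68.8% and 83.5% of tumour cells (96.9% and 95.2% unthinned).

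Interferon-gamma targets were higher in tumour cells by larger folds, but unevenly over cells. Of 12 tested, 10 were higher past the fold and 0 lower, with a median of 1.37. Irgm1, an immunity-related GTPase, stood at 25.9 CPM under IgG and 64.5 CPM under anti-PD-1, a ratio of 2.49 (1.78 to 3.52). Ifi47 stood at 15.8 CPM under IgG and 41.7 CPM under anti-PD-1, a ratio of 2.65 (1.72 to 4.16). Of the type I interferon list 4 of 7 were past the fold, among them the surface protein Bst2, or tetherin, at 55.9 CPM under IgG and 121 CPM under anti-PD-1, a ratio of 2.17 (1.72 to 2.75). Gbp2 had a ratio of 3.87 (2.85 to 5.33), with 1 cell holding 20.9% of the UMIs under anti-PD-1. Cxcl9 had 4 and 126 UMIs, of which 1 cell held 51.6%, and Iigp1 had 31 and 129 UMIs, of which 1 cell held 41.9%. The top 5% of tumour cells held 31.5% of the list's UMIs under IgG and 55.0% under anti-PD-1, and the median cell moved from 2.27 to 3.32 UMIs per 10000. Irf1 did not differ beyond counting error, at 1.25 (0.882 to 1.77), and Cd274 had only 13 and 6 UMIs. In the knockout pair Irgm1 had 3.37 (2.5 to 4.6), and 9 of 10 list members were past the fold.

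Other programmes of tumour cells differed between the pairs. Lgals4, a galectin of gut-like epithelium, stood at 769 CPM under IgG and 269.8 CPM under anti-PD-1, a ratio of 0.351 (0.316 to 0.388), and in the knockout pair at 37.5 the other way. Its UMIs were uneven over cells: 1 cell held 15.1% of its UMIs under IgG, and after thinning it was seen in 23.2% and 12.8% of cells (44.6% and 32.0% unthinned), a ratio of 0.55 (0.27 to 1.10). Of the UMIs of the lineage list, 7 cells held 58.9% under IgG in wild-type tumours and 8 cells held 87.4% under anti-PD-1 in knockout tumours. The keratin Krt7 stood at 127 CPM under IgG and 58 CPM under anti-PD-1, a ratio of 0.456 (0.36 to 0.574), against 3.86 (2.78 to 5.44) in the knockout pair. The gastric-lineage regulator Hnf4a did not differ beyond counting error, at 0.767 (0.552 to 1.06). Of 6 lineage genes tested 3 were lower past the fold. Hypoxia and glycolysis genes lay below 1 in 19 of 19, with 4 past the fold and a median of −0.40. The glucose transporter Slc2a1 stood at 60.5 CPM under IgG and 28.2 CPM under anti-PD-1, a ratio of 0.466 (0.329 to 0.65). Immediate-early and heat-shock genes, which stress induces quickly, had 6 of 16 lower, with Jun at 0.532 (0.461 to 0.612) and Fos at 0.595 (0.557 to 0.635). In the knockout pair the hypoxia median was 0.46 and the immediate-early median 0.59.

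Of 25 proliferation genes tested in tumour cells 19 lay above 1, with 6 higher and 0 lower past the fold and a median of 0.31. The list was uneven over cells: 7 cells held 61.6% of its UMIs under IgG, and 7 held 41.75% under anti-PD-1. The median cell was at 4.35 UMIs per 10000 under IgG and 6.08 under anti-PD-1. Mcm3, a subunit of the replicative helicase, stood at 20.9 CPM under IgG and 57.4 CPM under anti-PD-1, a ratio of 2.75 (1.9 to 4.05), and Mcm2, Mcm4, Mcm5 and Mcm7 had ratios of 2.37, 1.81, 2.69 and 1.86. With the mitotic kinase Bub1 these Mcm genes were the 6 past the fold, while Mki67 stayed at 1.08 (0.767 to 1.52). Mcm3 had 0.861 (0.665 to 1.11) in knockout tumours. Fosl1, an AP-1 factor, stood at 11.2 CPM under IgG and 34.1 CPM under anti-PD-1, a ratio of 3.05 (1.85 to 5.21), and at 1.06 in the knockout pair.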

How the data were processed

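PolyA RNA of the 4 libraries was read from its 3′ end (10x Genomics, v2 chemistry), per the labels' protocols. The values deposited by the authors are UMI counts per gene and cell, not normalised, in matrices that Cell Ranger 3.0.0 wrote, per the file headers. Whole numbers with unequal totals show that they are counts. The submitters' processing notes name bcl2fastq, Cell Ranger and the human build hg19, while the gene identifiers are mouse, so the build used is not established. Coordinates are those of RefSeq's GRCm38.p6 promoter table, which was matched by gene symbol. The lowest barcode held 500 UMIs in each library.

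Cells under 200 detected genes (9 under IgG and 13 under anti-PD-1) or over 10% mitochondrial UMIs (320 and 385) were left out. Scrublet, run per library in scanpy 1.11.5, marked 75 and 101 doublets by its automatic threshold in the wild-type libraries and 2 and 0 in the knockout libraries, so a score limit of 0.25 was used in all 4. It removed 86 and 101 cells, leaving 5659 and 6184. The single deposited barcode list has as many entries as the IgG library alone, so barcodes shared between libraries could not be counted.

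Counts scaled per cell and logged gave 2000 variable genes, 30 principal components, 15 neighbours and Leiden clusters at resolution 1 (igraph 0.11.9) over all 4 libraries, without batch correction. Clusters were named by marker lists. The epithelial and conventional dendritic clusters were clustered again for naming. T cells were gated on Cd8a, Cd8b1, Cd4 and Foxp3. The UMIs of all cells in a class were added up within each library and scaled to CPM. Shares have Clopper-Pearson intervals, CPM Poisson intervals and ratios exact conditional intervals (scipy 1.17.1), at 95%. PCR duplicates are removed by UMIs, and intervals cover counting error only.

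Genes were named by a rule of size: in each class with 50 or more cells per library, genes with 50 or more UMIs, at least 1.5-fold different, with UMIs in 10 or more cells and under 20% of them in 1 cell, ranked by the interval bound nearest 1, 12 per direction. Mitochondrial, ribosomal, haemoglobin, immunoglobulin, clone-named and sex-linked genes were left out of the ranking. Members of the gene lists are named besides. Some genes that the lists count are not reported here. The members, markers and lists were chosen with earlier results of these data known. The function that computes ratios was run on simulated Poisson sums for CD8-gated T cells and macrophages, with known folds put in. The simulation had no unevenness between cells and did not run the naming rule, so it tests neither. Alternatives were TMM (edgeR 4.0.16) and median-of-ratios scaling, other UMI, gene and mitochondrial limits, mean CPM over cells, thinning, the leading cell or doublet removal left out, resolutions 0.5 and 2, and clustering of the wild-type libraries alone.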

Additional observations from a re-analysis of the deposited data

Results flagged for a closer look

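A rule of size flagged 8 results in which the wild-type pair and the Asf1a-knockout pair lay on opposite sides. Shares were flagged where both intervals left out 1, and gene lists where both absolute medians were at least 0.3. Single genes were not scanned, and several genes and smaller list medians given above also lay on opposite sides. The difference between the pairs was not tested, since each group is 1 library. B cells as a share of all cells had a ratio of 1.232 (anti-PD-1 over IgG) in wild-type and 0.6622 in knockout tumours. CD4-gated cells had 0.7881 against 1.593 as a share of T cells, and 0.8247 against 1.765 as a share of all cells.

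Among gene lists, the median log2 ratio of MHC class II genes in NK cells was −1.253 in the wild-type pair and 0.6659 in the knockout pair. In conventional dendritic cells that of proliferation genes was −0.6752 and 0.6945. Tumour cells differed in 3 lists: hypoxia and glycolysis at −0.4002 and 0.4633, immediate-early and heat-shock genes at −0.463 and 0.5851, and lung and gastric lineage genes at −0.9467 and 0.3585. The lineage list includes the club cell transcript Scgb1a1, which was lower in 11 of 12 classes of the wild-type pair. The part of free RNA was not tested.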

How the results depend on the processing

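Under the alternatives, 272 of 278 list medians stayed within the median counting interval of their genes, 75 of 78 ratios of shares stayed within their counting interval, and 187 of 260 counts of genes stayed within 1.5 times the reported count. In CD8-gated T cells the counts of 523 higher and 134 lower became 288 and 246 with TMM, 261 and 266 with median-of-ratios scaling, 1860 and 1138 with every gene seen in both libraries, and 112 and 19 with at least 200 UMIs. The lower count was 204 with mean CPM over cells and 76 after thinning. In macrophages the counts of 257 and 180 became 1245 and 1245 with every gene, 54 and 24 with 200 UMIs, 430 and 273 with mean CPM and 114 and 78 after thinning. In tumour cells those of 316 and 406 became 1522 and 1853, 48 and 69, 989 and 1126, and 29 and 50. A different number of genes enters under these filters. The neutrophil share ratio of 0.831 was 0.776 with at least 500 genes and 0.734 with at least 1000 UMIs, and the CD8 ratio of 1.34 was 1.48 with gates after thinning. The proliferation median of conventional dendritic cells reversed from −0.675 to 0.0855 with at least 500 genes and to 0.0704 at resolution 2. The chemokine median of migratory dendritic cells went from −0.754 to −0.0517 after thinning, the tumour lineage median from −0.947 to −0.382 with every gene and −0.370 with mean CPM, and the tumour hypoxia median from −0.400 to −0.180 after thinning. The cause was not tested. Splits inside clusters were chosen after seeing the data. Genes with few UMIs, tumour cells and gated CD4 cells are limited by depth. No paired analysis was possible because each group is 1 library.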
